A study of Mus musculus with 12 samples.

Results

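The Schlafen genes are a family of mouse genes named Slfn, and 7 of them were measured here: Slfn1, Slfn2, Slfn3, Slfn4, Slfn5, Slfn8 and Slfn9. The rule takes the gene symbol alone, out of 12441 genes with a value, although the family was proposed with earlier results of these data known. All 7 carry the family name because the rule selected on it, and all 7 lie in a single cluster on mouse chromosome 11. The cluster's pseudogene Slfn10-ps has the family name but is not counted among the 7.

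Schlafen genes are best known as interferon-induced growth regulators of immune cells. The family was first described in developing and resting T lymphocytes, and type I interferon raises several of its mouse members in many cell types, macrophages among them. The proteins share a conserved core domain, and in human cells some relatives cut transfer RNA. The mouse genes are usually sorted by protein length. Slfn1 and Slfn2 encode short forms, Slfn3 and Slfn4 intermediate forms, and Slfn5, Slfn8 and Slfn9 long forms that add a helicase-like region. Lipopolysaccharide (LPS), the bacterial cell wall lipid, acts on macrophages through Toll-like receptor 4, which leads to interferon beta release and, through the interferon receptor, to a later wave of interferon-induced genes.

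RNA was sequenced from mouse bone marrow-derived macrophages, cultured for 6 days with 10% L929-conditioned medium, a source of macrophage colony-stimulating factor. The 4 groups of 3 libraries were D316Y after 24 h with 100 ng/mL LPS, wild type (WT) after the same LPS, D316Y unstimulated and WT unstimulated. D316Y cells were homozygous for that change in COQ6, a mitochondrial monooxygenase of coenzyme Q biosynthesis. The study asked how this homozygosity affects the macrophage transcriptome with and without stimulation. The sources used here give no mouse strain, age or sex. They also leave it unsaid whether the 3 libraries of a group are separate animals or cultures, and the spread behind each p-value may therefore be technical.

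Values are log2 CPM as the authors deposited them, the log2 of a gene's reads scaled to its library's size, with 32.8 to 47.2 M tabulated reads per library. Replicate 1 of each unstimulated group stood apart from its group, with a mitochondrial read share of 0.949% in D316Y and 0.449% in WT. The other unstimulated libraries had 1.97% to 2.97%, and the LPS libraries 0.658% to 1.10%. The family's results that rest on unstimulated cells are therefore also given without those replicate 1 libraries. All 11 macrophage markers had reads in every group. Of 18 markers of T, NK and B lymphocytes, which also use Schlafen genes, 3 had a value, and they summed to at most 11.2 CPM in either LPS group, against at most 15.2 CPM in unstimulated D316Y and 20.8 CPM in unstimulated WT. The lymphocyte genes Cd3e and Ncr1 were not among the 3. Of the 3, Cd4 was lower with LPS (mean log2 CPM 1.19 against 2.62 in D316Y, 1.37 against 2.86 in WT). Cd79b was higher with LPS (2.89 against 2.17 in D316Y, 3.02 against 2.27 in WT). Lck was higher too (-0.21 against -1.65 in D316Y, 0.09 against -0.74 in WT). Monocyte and progenitor markers, 5 of 6 with a value, summed to 160 to 218 CPM in D316Y with LPS and 168 to 222 CPM in WT with LPS, against 103 to 114 CPM in unstimulated D316Y and 84.2 to 96.4 CPM in unstimulated WT. Neutrophil markers, 6 of 11 with a value, summed to 44.5 to 55.5 CPM in D316Y with LPS and 38.0 to 52.5 CPM in WT with LPS, against 25.9 to 44.8 CPM in unstimulated D316Y and 17.0 to 30.9 CPM in unstimulated WT. Dendritic cell markers, 3 of 6 with a value, summed to at most 2.84 CPM in D316Y with LPS and 3.39 CPM in WT with LPS, against at most 4.42 CPM in unstimulated D316Y and 4.33 CPM in unstimulated WT. Monocyte marker sums were thus higher with LPS in every library, and neutrophil sums too apart from an overlap in D316Y. Members of either list moved apart: in D316Y the log2 difference with LPS was 7.58 for Ly6c2 but -1.72 for Ccr2 and -6.52 for Cd34, and 4.08 for Camp but -1.79 for Ngp. Their part in the Schlafen results was not tested.

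By the GENCODE M21 annotation of GRCm38 the 7 genes span 264 kb of chromosome 11, at chr11:82951349-83215154. In order along the chromosome, Slfn5 lies on the plus strand at 82951349 to 82964840. Slfn9 and Slfn8 follow on the minus strand, at 82978390 to 82991830 and 83002158 to 83020810. The other four lie on the plus strand, with Slfn2 at 83065112 to 83070678, Slfn1 at 83116849 to 83122670, Slfn4 at 83175186 to 83190216 and Slfn3 at 83191330 to 83215154. Slfn10-ps sits between Slfn8 and Slfn2.

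The promoters of 5 members are shown because LPS changed these genes to very different degrees: Slfn1 and Slfn4 changed most, Slfn2 was the most abundant, and Slfn8 and Slfn9 are close copies. Each line gives the 250 bases before the RefSeq start site (GRCm38.p6), 5′ to 3′ on the gene's own strand. Capitals mark matches, on either strand, to GAAANNGAAA (the core of the interferon-stimulated response element), to AANNGAAA (the shorter form that interferon regulatory factors bind, which overlaps every GAAANNGAAA match) and to CCAGGAAGT, which was searched for after the sequences had been seen and overlaps an AANNGAAA match in Slfn2.
Slfn1 (chr11:83116570-83116819, plus strand): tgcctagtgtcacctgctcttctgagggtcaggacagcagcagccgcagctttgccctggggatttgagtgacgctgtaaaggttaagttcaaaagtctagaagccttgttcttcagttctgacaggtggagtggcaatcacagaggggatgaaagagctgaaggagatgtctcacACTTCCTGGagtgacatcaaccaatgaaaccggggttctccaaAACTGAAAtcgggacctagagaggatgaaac
Slfn4 (chr11:83174936-83175185, plus strand): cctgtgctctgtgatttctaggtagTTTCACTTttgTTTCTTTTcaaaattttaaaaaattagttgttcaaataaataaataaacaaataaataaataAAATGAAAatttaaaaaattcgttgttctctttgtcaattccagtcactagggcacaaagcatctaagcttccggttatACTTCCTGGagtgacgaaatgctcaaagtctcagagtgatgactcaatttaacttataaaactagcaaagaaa
Slfn2 (chr11:83064862-83065111, plus strand): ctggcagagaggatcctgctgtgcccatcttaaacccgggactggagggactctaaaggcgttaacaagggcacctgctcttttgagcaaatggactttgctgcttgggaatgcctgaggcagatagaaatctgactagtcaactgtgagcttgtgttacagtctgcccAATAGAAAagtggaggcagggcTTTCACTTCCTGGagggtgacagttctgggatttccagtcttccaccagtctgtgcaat
Slfn8 (chr11:83020811-83021060, minus strand): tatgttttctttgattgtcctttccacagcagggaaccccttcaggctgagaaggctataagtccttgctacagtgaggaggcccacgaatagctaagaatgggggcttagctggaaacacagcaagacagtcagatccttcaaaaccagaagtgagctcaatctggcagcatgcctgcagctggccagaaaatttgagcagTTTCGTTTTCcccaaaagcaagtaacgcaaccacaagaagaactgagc
Slfn9 (chr11:82991831-82992080, minus strand): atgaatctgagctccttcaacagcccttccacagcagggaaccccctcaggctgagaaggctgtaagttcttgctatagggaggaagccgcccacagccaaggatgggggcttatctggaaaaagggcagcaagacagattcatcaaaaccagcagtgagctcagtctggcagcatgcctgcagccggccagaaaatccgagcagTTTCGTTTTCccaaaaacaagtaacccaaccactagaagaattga

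GAAANNGAAA was found in 3 of the 7 promoters, those of Slfn5, Slfn8 and Slfn9, and in 2.98% of the 32851 promoters in the reference table. It lay at bases 48 to 39 before the start in Slfn8 and at bases 45 to 36 in Slfn9, as GAAAACGAAA on the opposite strand in both. In Slfn5 it lay at bases 155 to 146, counted from a RefSeq start 753 bases from the GENCODE start. AANNGAAA was found in 7 of 7 promoters and in 21.3% of all promoters. The letters CCAGGAAGT were found, on the opposite strand, in the promoters of Slfn1, Slfn2, Slfn3 and Slfn4. That is 4 of 7, against 0.700% of all promoters. Because these letters were chosen after the sequences had been seen, the 2 shares cannot serve as a test. The letters CCAGGAAGT lay at bases 74 to 66 before the start in Slfn1, 73 to 65 in Slfn4, 55 to 47 in Slfn2 and 42 to 34 in Slfn3. An NF-kB consensus, searched by its standard degenerate letters on both strands, matched in Slfn1 and Slfn9, which is 2 of 7, against 7.25% of all promoters. The promoters of Slfn8 and Slfn9 were identical in 204 of 255 aligned columns (80%), and the next closest pair, Slfn8 and Slfn2, in 137 of 274. A match is a description of the letters only.

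Set on a common scale by length (CPM per kilobase of annotated exon), Slfn2 was by far the most abundant member in all 4 groups. Slfn2, whose mutation in mice makes T cells and monocytes fail when activated, averaged 771 ± 74.6 CPM per kilobase in D316Y with LPS and 766 ± 39.0 in WT with LPS (SD, n = 3 each). Its mean was 392 ± 61.9 CPM per kilobase in unstimulated D316Y and 502 ± 114 in unstimulated WT. That was 81.2% of the family's summed level per length in D316Y with LPS and 84.3% in WT with LPS, against 93.1% in unstimulated D316Y and 92.5% in unstimulated WT. While Slfn2's share was lower with LPS, that of Slfn1, the founding member known for slowing T cell growth, was higher. Slfn1 held 11.0% of the summed level in D316Y with LPS and 9.52% in WT with LPS, against 0.728% in unstimulated D316Y and 1.03% in unstimulated WT. Slfn4, a myeloid member known from macrophage activation and differentiation, held 2.56% in D316Y with LPS and 1.27% in WT with LPS, against 0.232% in unstimulated D316Y and 0.235% in unstimulated WT.

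Below Slfn2 the order of levels per length changed with LPS. With LPS, Slfn1 stood second in both genotypes, at 107 ± 29.8 CPM per kilobase in D316Y and 86.9 ± 19.2 in WT. The next 3 overlapped only in part. In D316Y they were Slfn8 (26.4 ± 3.02), Slfn4 (24.9 ± 9.79) and Slfn5 (17.8 ± 0.606). There Slfn8 lay above Slfn5 in every library, without overlap. In WT the same 3 stood as Slfn8 (22.5 ± 2.91), Slfn5 (17.8 ± 5.97) and Slfn4 (11.7 ± 4.09). There Slfn8 lay above both others in every library, and did not overlap Slfn4. The order of Slfn8 and Slfn5 rests on the length used, all annotated exons joined (4091 and 6326 bases). That length may not be that of the transcripts expressed. In plain CPM, Slfn8 had 95.9, 78.5 and 101 in WT with LPS, against 145, 71.1 and 121 for Slfn5. In D316Y with LPS it had 109, 120 and 95.1, against 109, 117 and 111. Slfn9 (3.07 ± 0.389 in D316Y, 2.56 ± 0.512 in WT) and Slfn3 (1.77 ± 0.177 in D316Y, 1.50 ± 0.198 in WT) came last, and did not overlap each other in either genotype. In unstimulated D316Y cells Slfn8 (12.3 ± 1.25 CPM per kilobase) and Slfn5 (9.75 ± 2.58) came next after Slfn2, then Slfn1 (3.11 ± 0.848) and Slfn9 (2.21 ± 0.471), and last Slfn4 (0.973 ± 0.186) and Slfn3 (0.713 ± 0.174), all with SD and n = 3. Within each of these 3 pairs the ranges over libraries overlapped, but inside a library Slfn1 lay above Slfn9 and Slfn4 above Slfn3 in 3 of 3, and Slfn8 above Slfn5 in 2 of 3. Unstimulated WT cells had the same order, with 15.8 ± 3.60 for Slfn8, 14.4 ± 6.09 for Slfn5, 5.56 ± 1.30 for Slfn1, 2.93 ± 0.824 for Slfn9, 1.26 ± 0.240 for Slfn4 and 0.945 ± 0.210 for Slfn3, and there Slfn1 and Slfn9 did not overlap.

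**Figure D1:**
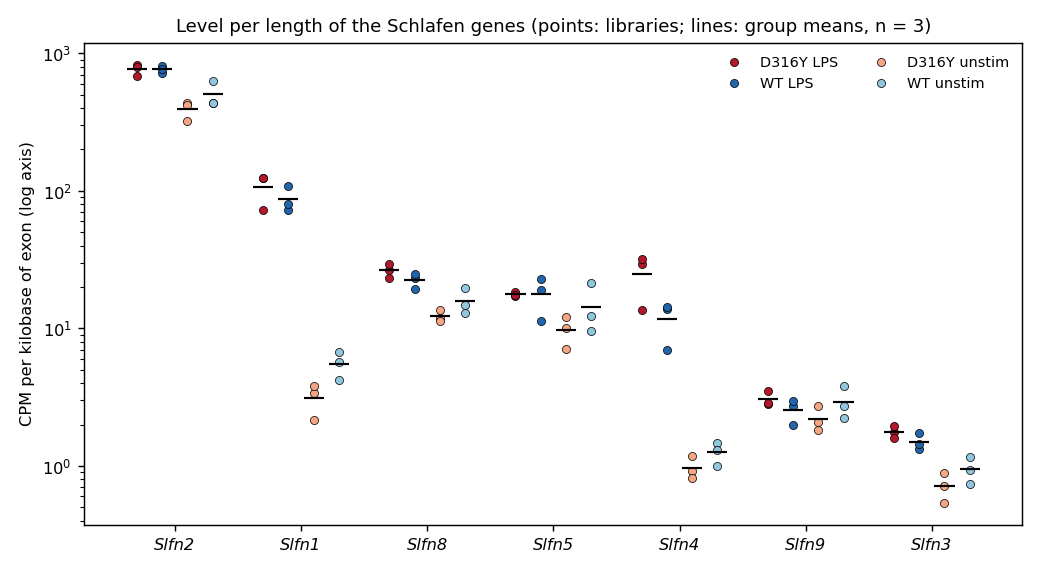
Level per length of each Schlafen gene, as CPM per kilobase of annotated exon on a log axis; points are libraries, lines are group means (n = 3), and colours are the 4 groups. Slfn2 lies far above the other genes in every group, and Slfn1 and Slfn4 show the widest gap between LPS and unstimulated libraries.

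The first comparison asked what 24 h of LPS did to the family in each genotype. Of the 7 members, 6 rose in D316Y and 5 rose in WT, and none fell, although with total recovered reads as library size Slfn9 passed as lower in WT (-0.69). Slfn1 and Slfn4 rose by far the most, whereas Slfn9 did not pass in either genotype. A member passed at a limma adjusted p under 0.05, adjusted over all genes tested. LPS moved much of the transcriptome: 38.4% of 11795 genes passed in D316Y (19.4% higher, 19% lower) and 37.1% of 11663 passed in WT (18.1% higher, 19% lower). The members' median change was 1.10 on the log2 scale in D316Y and 0.63 in WT, beside -0.03 in D316Y and -0.01 in WT over all genes tested. In bulk RNA, a change in the share of cells that express a gene and a change in RNA per cell cannot be told apart.

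Among the short forms, Slfn1 gave the largest response of the family. Its log2 CPM was 7.85, 7.85 and 7.07 in D316Y with LPS, against 2.65, 2.01 and 2.82 in unstimulated D316Y. In WT it was 7.07, 7.22 and 7.66 with LPS, against 3.66, 2.96 and 3.41 in unstimulated cells. The LPS and unstimulated libraries lay far apart in both genotypes. Slfn1 was 34.2-fold higher with LPS in D316Y (5.10 on the log2 scale, SE 0.27, limma adjusted p 9.34e-09) and 15.7-fold higher in WT (3.97, SE 0.27, adjusted p 1.10e-07). In reads, it drew 4385 to 8724 per library in D316Y with LPS and 5663 to 8345 in WT with LPS, against 222 to 344 in unstimulated D316Y and 370 to 705 in unstimulated WT. Without the unstimulated replicate 1 libraries its rise was 5.18 in D316Y and 4.13 in WT on the log2 scale.

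Slfn2, the other short form, binds transfer RNA in mouse T cells and shields it from cleavage by the ribonuclease angiogenin. Its log2 CPM was 10.43, 10.38 and 10.16 in D316Y with LPS, against 9.49, 9.06 and 9.46 in unstimulated D316Y. In WT it was 10.24, 10.38 and 10.33 with LPS, against 10.04, 9.51 and 9.50 in unstimulated cells. The groups did not overlap, and unstimulated WT replicate 1 came nearest to the LPS values. Slfn2 rose 1.98-fold in D316Y (0.98, SE 0.19, limma adjusted p 0.000845) and 1.55-fold in WT (0.63, SE 0.19, adjusted p 0.0163). Without the unstimulated replicate 1 libraries its rise was 1.06 in D316Y and 0.81 in WT on the log2 scale. The WT call was lost without unstimulated WT replicate 2 (0.54) or 3 (0.54) or WT LPS replicate 2 (0.60), and its adjusted p lay between 0.000327 and 0.535 over all alternatives.

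Of the intermediate forms, Slfn4 was the second strongest responder of the family. Its log2 CPM was 6.85, 6.98 and 5.76 in D316Y with LPS, against 1.86, 1.71 and 2.23 in unstimulated D316Y. In WT it was 4.79, 5.78 and 5.82 with LPS, against 2.54, 1.98 and 2.38 in unstimulated cells. Both LPS groups lay well above both unstimulated groups, and each held 1 low library, D316Y replicate 3 and WT replicate 1. Slfn4 was 24.3-fold higher with LPS in D316Y (4.60, SE 0.33, limma adjusted p 1.76e-07) and 8.97-fold higher in WT (3.17, SE 0.33, adjusted p 5.88e-06). It stood, without the unstimulated replicate 1 libraries, at 4.57 in D316Y and 3.29 in WT.

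Slfn3, the other intermediate form, known from T cells and, in the rat, from differentiating gut epithelium, was the scarcest member per length, at 101 to 251 reads per library. Its log2 CPM was 2.60, 2.73 and 2.45 in D316Y with LPS, against 1.59, 0.87 and 1.29 in unstimulated D316Y. In WT it was 2.19, 2.56 and 2.31 with LPS, against 1.99, 1.34 and 1.66 in unstimulated cells. The groups did not overlap. Slfn3 rose 2.53-fold in D316Y (1.34, SE 0.23, limma adjusted p 0.000371) and 1.61-fold in WT (0.69, SE 0.23, adjusted p 0.0299). The WT call was lost without unstimulated WT replicate 2 (0.53) or 3 (0.69), without WT LPS replicate 2 (0.58) or 3 (0.71), and in a fit of the 6 WT libraries alone, with adjusted p between 0.00660 and 0.474 over all alternatives. Without the unstimulated replicate 1 libraries its rise was larger, at 1.51 in D316Y and 0.85 in WT.

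Among the long forms, Slfn8, a helicase-like member studied in mouse T cell development, had log2 CPM of 6.77, 6.90 and 6.57 in D316Y with LPS, against 5.62, 5.53 and 5.81 in unstimulated D316Y. In WT it had 6.58, 6.29 and 6.66 with LPS, against 6.34, 5.92 and 5.72 in unstimulated cells. The D316Y groups were clearly separate, whereas WT LPS replicate 2 lay below unstimulated WT replicate 1. Slfn8 rose 2.14-fold in D316Y (1.10, SE 0.17, limma adjusted p 0.000179) and 1.43-fold in WT (0.52, SE 0.17, adjusted p 0.0280). The WT call was lost without unstimulated WT replicate 2 (0.48) or 3 (0.38), without WT LPS replicate 1 (0.49) or 3 (0.45), and in the fit of WT libraries alone. Its WT adjusted p lay between 0.00170 and 0.956 over all alternatives. Leaving out the unstimulated replicate 1 libraries gave 1.08 in D316Y and 0.70 in WT.

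Slfn5, a long form whose human relative restricts herpesvirus transcription in the nucleus, had log2 CPM of 6.77, 6.86 and 6.80 in D316Y with LPS, against 6.26, 5.47 and 6.00 in unstimulated D316Y. In WT it had 7.18, 6.15 and 6.92 with LPS, against 7.07, 6.29 and 5.93 in unstimulated cells. D316Y libraries did not overlap, whereas the WT groups were interleaved. Slfn5 rose 1.87-fold in D316Y (0.90, SE 0.30, limma adjusted p 0.0292), and its difference in WT was 0.32 (SE 0.30, 95% interval -0.32 to 0.97, adjusted p 0.435). The D316Y call was lost without unstimulated D316Y replicate 2 (0.68) or 3 (0.94) or D316Y LPS replicate 1 (0.92), 2 (0.87) or 3 (0.91), with adjusted p between 0.00278 and 0.285 over all alternatives. Without the unstimulated replicate 1 libraries Slfn5 passed in both genotypes, at 1.08 in D316Y and 0.64 in WT. The WT call was at the edge of the threshold (limma adjusted p 0.0474). With only unstimulated WT replicate 1 left out, Slfn5 did not pass in WT (0.64, adjusted p 0.0806).

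Slfn9, the near copy of Slfn8, had log2 CPM of 4.08, 4.39 and 4.09 in D316Y with LPS, against 4.02, 3.43 and 3.64 in unstimulated D316Y. In WT it had 4.03, 3.57 and 4.14 with LPS, against 4.52, 4.03 and 3.73 in unstimulated cells. The D316Y libraries did not overlap, by a narrow margin, and the WT libraries did. Its difference was 0.49 in D316Y (SE 0.22, 95% interval 0.01 to 0.96, limma adjusted p 0.102) and -0.18 in WT (SE 0.22, interval -0.66 to 0.30, adjusted p 0.569). It passed in D316Y without unstimulated D316Y replicate 1 (0.65, adjusted p 0.0435) and without both unstimulated replicate 1 libraries (0.65, adjusted p 0.0123), with adjusted p up to 0.917 over all alternatives. Libraries did not overlap, and lay higher with LPS, for 7 of 7 members in D316Y, against 26.7% of all genes tested. In WT the libraries of Slfn5, Slfn8 and Slfn9 overlapped. The share over all genes is not given for WT, so the genotypes are not compared on this count.

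The authors' scaling sets the zero of these changes. With the total recovered reads as library size in place of the authors' effective library sizes, the median gene moved by -0.52 in D316Y and -0.51 in WT on the log2 scale, and the share of passing genes that were higher with LPS was 15.3% in D316Y and 13.6% in WT, beside 50.6% in D316Y and 48.8% in WT with the authors' sizes. Slfn1 and Slfn4 passed as higher under that scaling too, at 4.58 and 4.09 in D316Y and at 3.46 and 2.66 in WT. Slfn5 in D316Y (0.38) and Slfn2 (0.12), Slfn3 (0.18) and Slfn8 (0.01) in WT no longer passed. Slfn9 then stood at -0.03 in D316Y and at -0.69 in WT, where it passed as lower (adjusted p 0.0173), and Slfn5 in WT stood at -0.19. A change of library size moves all genes of a library alike, so places relative to the median gene were fixed in advance. They are no check on the rise. In D316Y all 7 members stood above the median gene, by 0.51 to 5.12. In WT 6 stood above it, by 0.33 to 3.98, with Slfn9 at -0.17.

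**Figure D2:**
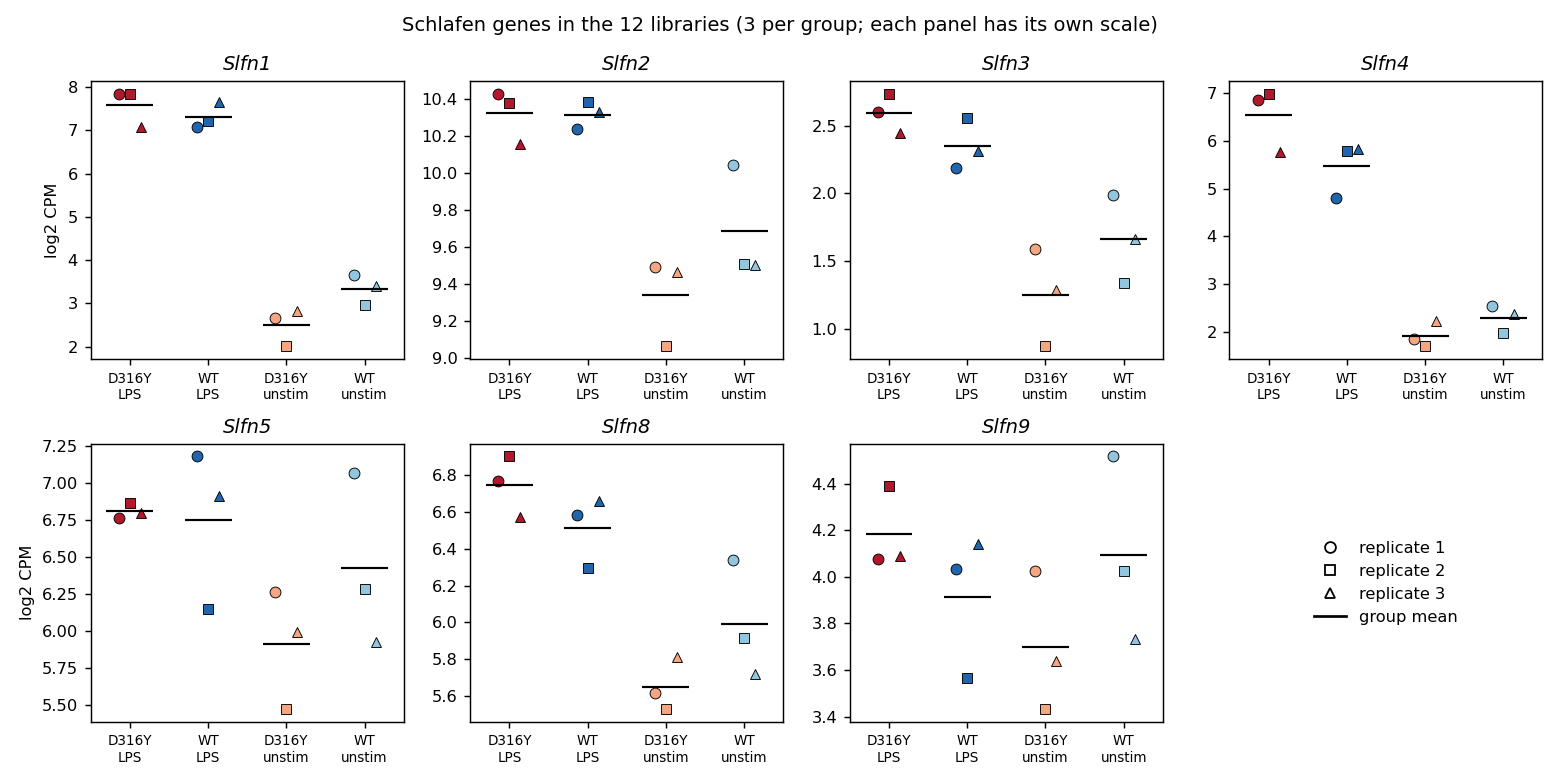
Log2 CPM of the 7 Schlafen genes in each of the 12 libraries; panels are genes, each with its own scale, marker shapes are replicates 1 to 3 and lines are group means (n = 3). Slfn1 and Slfn4 separate LPS from unstimulated libraries by the widest margin, and unstimulated WT replicate 1 is the highest library of its group in all 7 panels.

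**Figure D3:**
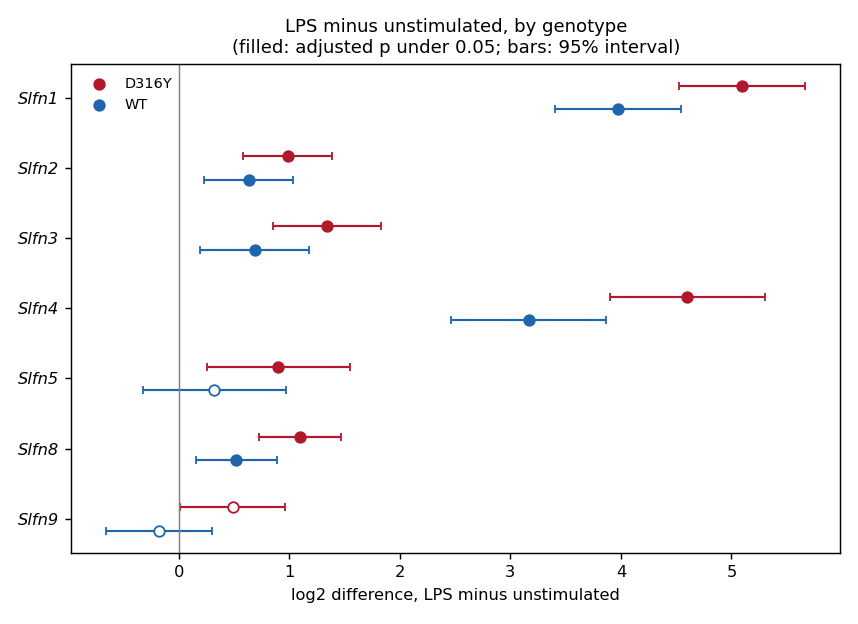
Log2 difference, LPS minus unstimulated, for each Schlafen gene in D316Y and WT cells, with 95% intervals; filled points passed at an adjusted p under 0.05. The D316Y estimate lies above the WT estimate for all 7 genes, and Slfn1 (5.10 in D316Y, 3.97 in WT) and Slfn4 (4.60 in D316Y, 3.17 in WT) stand apart from the others.

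The interferon pathway was read from a list of 17 signalling genes and a list of 19 other interferon-induced genes that act on RNA or translation. Of the signalling genes, 12 rose and none fell with LPS in D316Y (median 0.99), and 11 rose and 1 fell in WT (median 0.67). Over all genes tested, 19.4% rose and 19% fell in D316Y, and 18.1% rose and 19% fell in WT. The gene that fell in WT was Irf5 (-0.54). Socs3, a feedback inhibitor of cytokine receptors, rose by 6.70 in D316Y and 5.79 in WT on the log2 scale. Irf7, the transcription factor that amplifies interferon production, rose by 3.63 in D316Y and 2.85 in WT, and Usp18, which damps the interferon receptor, rose by 2.99 in D316Y and 2.38 in WT. With total recovered reads as library size, 10 rose and 3 fell in D316Y (median 0.48) and 7 rose and 4 fell in WT (median 0.16). Under that scaling 58.7% of all genes tested passed in D316Y and 58.4% in WT. Of those passing, 15.3% were higher in D316Y and 13.6% in WT.

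Of the interferon-induced RNA genes, 17 rose and 1 fell in D316Y (median 1.41), and 11 rose and 1 fell in WT (median 0.86). The shares over all genes tested were 19.4% higher and 19% lower in D316Y, and 18.1% higher and 19% lower in WT. Isg20, an exonuclease, rose by 3.35 in D316Y and 2.63 in WT, and Oasl1, which represses Irf7 translation, rose by 4.53 in D316Y and 3.40 in WT. The members' own medians of 1.10 in D316Y and 0.63 in WT were close to those of the signalling list. With total recovered reads as library size, 13 of the interferon-induced RNA genes rose and 2 fell in D316Y (median 0.90). In WT 4 rose and 2 fell (median 0.35). Of all genes tested, 58.7% then passed in D316Y and 58.4% in WT. When the unstimulated replicate 1 libraries were left out, 13 signalling genes rose and 0 fell in D316Y and 12 rose and 1 fell in WT. Then 15 of the RNA genes rose and 1 fell in each genotype. Beside them, 43.9% of all genes tested passed in D316Y and 41.9% in WT.

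Genes tied to what Schlafen proteins do in other cells moved in both directions. Of 15 measured genes of transfer RNA cleavage, protection and ribosome stalling, 2 rose and 3 fell with LPS in each genotype. Beside them, 38.4% of all genes tested passed in D316Y and 37.1% in WT. With total recovered reads as library size 0 of the 15 rose, with 7 falling in D316Y and 6 in WT. Of all genes, 58.7% and 58.4% then passed. Map3k20, the kinase that senses stalled ribosomes, fell by 1.24 in D316Y and fell by 1.18 in WT, and Edf1, which marks collided ribosomes, rose by 0.58 in D316Y and by 0.57 in WT. The gene of angiogenin, Ang, had -0.63 in D316Y at the edge of the threshold (limma adjusted p 0.0494), a call lost under 12 of 16 alternatives (adjusted p up to 0.143), and -0.48 in WT (adjusted p 0.125). Of 21 cell cycle genes, 3 rose and 15 fell in D316Y and 2 rose and 14 fell in WT, with 16 falling in each under total recovered reads. Without the unstimulated replicate 1 libraries, 4 of the transfer RNA and stalling genes rose in each genotype and 2 fell in D316Y and 3 in WT. Of the cell cycle genes, 4 then rose and 14 fell in D316Y, and 3 rose and 15 fell in WT. The share of all genes passing was then 43.9% in D316Y and 41.9% in WT. Ccnd1, which encodes the cyclin D1 that Slfn1 was reported to repress in mouse fibroblasts, fell by 2.78 in D316Y and fell by 3.14 in WT, whereas Ccnd3 rose by 1.41 in D316Y and by 1.24 in WT.

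The neighbourhood of the cluster was read from the genes annotated within 500 kb of its ends, other than the members. Of 23 tested, 9 rose and 2 fell in D316Y, and 7 rose and 1 fell in WT. Over all genes tested, 38.4% passed in D316Y and 37.1% in WT. With total recovered reads as library size, 7 neighbours rose and 10 fell in D316Y, and 6 rose and 8 fell in WT. Under that scaling 58.7% of all genes passed in D316Y and 58.4% in WT. Leaving out the unstimulated replicate 1 libraries, 8 rose and 2 fell in D316Y, and 9 rose and 4 fell in WT. The share of all genes passing was then 43.9% in D316Y and 41.9% in WT. In the fit of all 12 libraries, the risers in both were AI662270, Ccl5, Heatr9, Mmp28, Rasl10b, Wfdc17 and Wfdc18, with Ccl6 falling in both. Gm11427 (1.04), Rffl (0.74) and Nle1 (-0.45) also passed in D316Y, of which Rffl lost its call under 4 of 16 alternatives and Nle1 under 8 of 16. Ccl6 lost its WT call under 6 of 16. Ccl5, a chemokine that draws T cells, rose by 8.43 in D316Y and by 7.94 in WT. The pseudogene Slfn10-ps, inside the cluster, had -0.04 in D316Y (adjusted p 0.905) and -0.32 in WT (adjusted p 0.228) and passed in neither.

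The second comparison asked whether the family differs between D316Y and WT macrophages at rest. All 7 members had lower mean log2 CPM in unstimulated D316Y than in unstimulated WT, by 0.34 to 0.85, and 0 of 7 passed the limma test (adjusted p 0.942 each). The test passed 1 of 11525 genes (0.00868%), or 6 with the replicate number as a block, which left the members' count at 0. An unadjusted p under 0.05 was reached by 1 of 7 members, against 2.92% of all genes. The members' median was -0.39, beside -0.02 over all genes tested.

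Slfn1 showed the largest gap. Its log2 CPM of 2.65, 2.01 and 2.82 in unstimulated D316Y lay entirely below the 3.66, 2.96 and 3.41 of unstimulated WT. The difference was -0.85 (SE 0.27, 95% interval -1.46 to -0.24, unadjusted p 0.0120, limma adjusted p 0.942), which is 1.80-fold lower in D316Y. It was -0.77 without both replicate 1 libraries, and between -1.04 and -0.61 with any single library left out. The authors' deposited table gives Slfn1 a log2 fold change of -0.893 with an adjusted p of 0.172.

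The other 6 members lay closer together. Slfn2 also did not overlap between genotypes (9.49, 9.06 and 9.46 log2 CPM in D316Y, 10.04, 9.51 and 9.50 in WT), with a difference of -0.35 and a 95% interval of -0.90 to 0.20. Libraries that did not overlap and lay lower in D316Y were seen for 2 of 7 members, against 5.18% of all genes. The differences were -0.52 for Slfn5, -0.41 for Slfn3, -0.39 for Slfn9, -0.37 for Slfn4 and -0.34 for Slfn8, each with an interval that reaches above 0 in the fit without a replicate block. Without both replicate 1 libraries all 7 were still lower in D316Y, by 0.15 for Slfn8 up to 0.77 for Slfn1. The authors' deposited table gives these 6 adjusted p-values of 0.279 to 0.690, with 95% intervals below 0 for Slfn3 (-0.940 to -0.0341, unadjusted p 0.0364) and Slfn2 (-0.499 to -0.00913, unadjusted p 0.0428).

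Unstimulated libraries numbered 1 and 2 deviated together between genotypes (correlations 0.660 and 0.636), and those numbered 3 less so (0.203). The replicate number was therefore also fitted as a block, although pairing by number was not established. Slfn1, Slfn2, Slfn3, Slfn4 and Slfn9 were lower in D316Y in 3 of 3 same-numbered pairs, and Slfn5 and Slfn8 in 2 of 3. With the block the 95% interval was -1.20 to -0.51 for Slfn1, -0.61 to -0.08 for Slfn2, -0.94 to -0.09 for Slfn5 and -0.70 to -0.09 for Slfn9, and those of Slfn3, Slfn4 and Slfn8 reached above 0. The limma adjusted p with the block was 0.105 for Slfn1 and up to 0.315 for the others, so 0 of 7 passed, while an unadjusted p under 0.05 was reached by 4 of 7 members and by 18.4% of all genes.

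The interferon lists lay in the same direction at rest. All 15 tested signalling genes had negative differences (median -0.32) and so had all 19 interferon-induced RNA genes (median -0.51), and 0 of either list passed. Without both replicate 1 libraries, 14 of 15 signalling genes (median -0.18) and 17 of 19 RNA genes (median -0.32) were negative, and with total recovered reads 18 of 19 RNA genes were. The transfer RNA and stalling list (median -0.10), the cell cycle list (median -0.14) and the neighbouring genes (median 0.08) lay nearer to the median of all genes, also with 0 passing.

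The third comparison asked the same of LPS-treated cells. All 7 members had higher mean log2 CPM in D316Y with LPS than in WT with LPS, by 0.01 to 1.07, although Slfn2 stood at -0.0087 with each library centred on its median gene. The limma test passed 0 of 7. Over all genes it passed 5 of 11306 (0.0442%). An unadjusted p under 0.05 was reached by 1 of 7 members, against 6.5% of all genes. The members' median was 0.24, beside -0.003 over all genes tested.

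Slfn4 had the largest difference. Its log2 CPM was 6.85, 6.98 and 5.76 in D316Y with LPS, against 4.79, 5.78 and 5.82 in WT with LPS. D316Y replicates 1 and 2 lay above every WT library, whereas D316Y replicate 3 lay among the WT values. The difference was 1.07 (SE 0.32, 95% interval 0.35 to 1.78, unadjusted p 0.00719, limma adjusted p 0.537), which is 2.09-fold higher in D316Y. It was 0.73 without WT LPS replicate 1 and 1.45 without D316Y LPS replicate 3, the lowest and highest values with a single library left out. The authors' deposited table gives Slfn4 a log2 fold change of 0.962 with an adjusted p of 0.167.

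The other 6 members overlapped between the genotypes under LPS. Slfn1 and Slfn9 had differences of 0.27 each, Slfn3 and Slfn8 of 0.24 each, Slfn5 of 0.06 and Slfn2 of 0.01. The authors' deposited table gives Slfn5 the opposite sign under LPS, a log2 fold change of -0.0574 with an adjusted p of 0.919. The 95% interval of Slfn2, the tightest of them, ran from -0.27 to 0.28, and its sign turned when single libraries were left out. That of Slfn1 ran from -0.19 to 0.74. The interferon signalling list had a median of 0.02 and the interferon-induced RNA list one of 0.04 under LPS, both with 0 passing. The pseudogene Slfn10-ps differed by 0.43 without overlap between libraries (unadjusted p 0.0104, limma adjusted p 0.587).

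**Figure D4:**
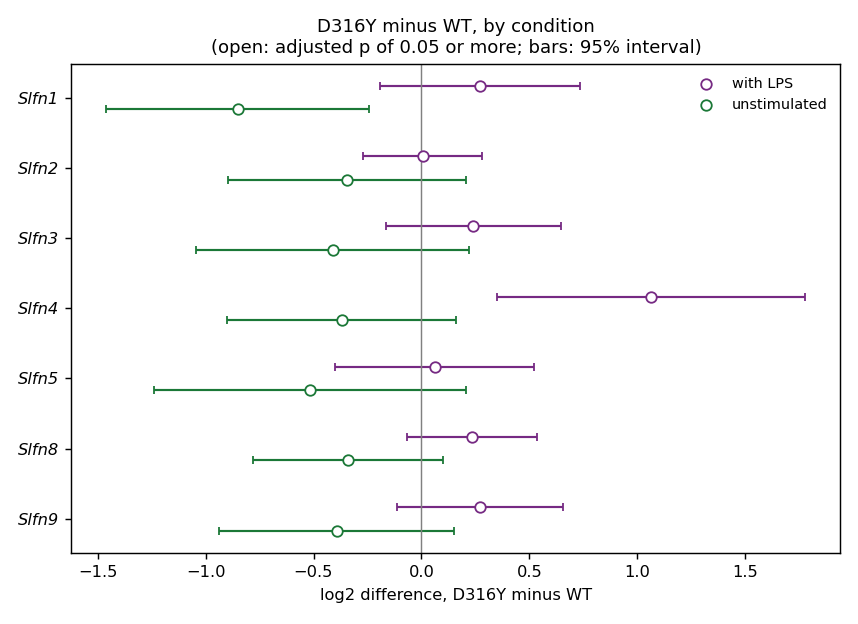
Log2 difference, D316Y minus WT, for each Schlafen gene with LPS and in unstimulated cells, with 95% intervals; all points are open because none passed at an adjusted p under 0.05. The LPS estimates lie above 0, with Slfn4 the highest at 1.07 and Slfn2 at 0.01 (-0.0087 with each library centred on its median gene), and the unstimulated estimates lie below 0 for all 7 genes.

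The last comparison asked whether the LPS response itself differs between the genotypes, as the response in D316Y minus that in WT. It uses the same 12 libraries as the comparisons above, so its signs follow from theirs. All 7 members had a larger response in D316Y, by 0.35 to 1.44 on the log2 scale, and 0 of 7 passed (limma adjusted p 0.999 each). No gene of 11918 passed (0%), while an unadjusted p under 0.05 was reached by 3 of 7 members and by 2.11% of all genes. The members' median was 0.65, beside 0.01 over all genes.

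Slfn4 had the largest interaction, at 1.44 (SE 0.46, 95% interval 0.44 to 2.43, unadjusted p 0.00794), and Slfn1 the next, at 1.12 (SE 0.38, interval 0.31 to 1.93, unadjusted p 0.0102). Slfn8 had 0.58 (unadjusted p 0.0321), Slfn9 0.66 (unadjusted p 0.0532) and Slfn3 0.65 (unadjusted p 0.0628), all from the limma fit. Slfn5 had 0.58 and Slfn2 had 0.35, with unadjusted limma p of 0.195 and 0.201. Without both unstimulated replicate 1 libraries the values were 1.28 for Slfn4, 1.05 for Slfn1 and 0.38 for Slfn8, and all 7 were still positive. The interferon signalling list was positive for 17 of 17 genes (median 0.37) and the interferon-induced RNA list for 19 of 19 (median 0.57), with 0 passing in either. Without both unstimulated replicate 1 libraries, 14 of 17 signalling genes (median 0.30) and 19 of 19 RNA genes (median 0.40) were positive.

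**Figure D5:**
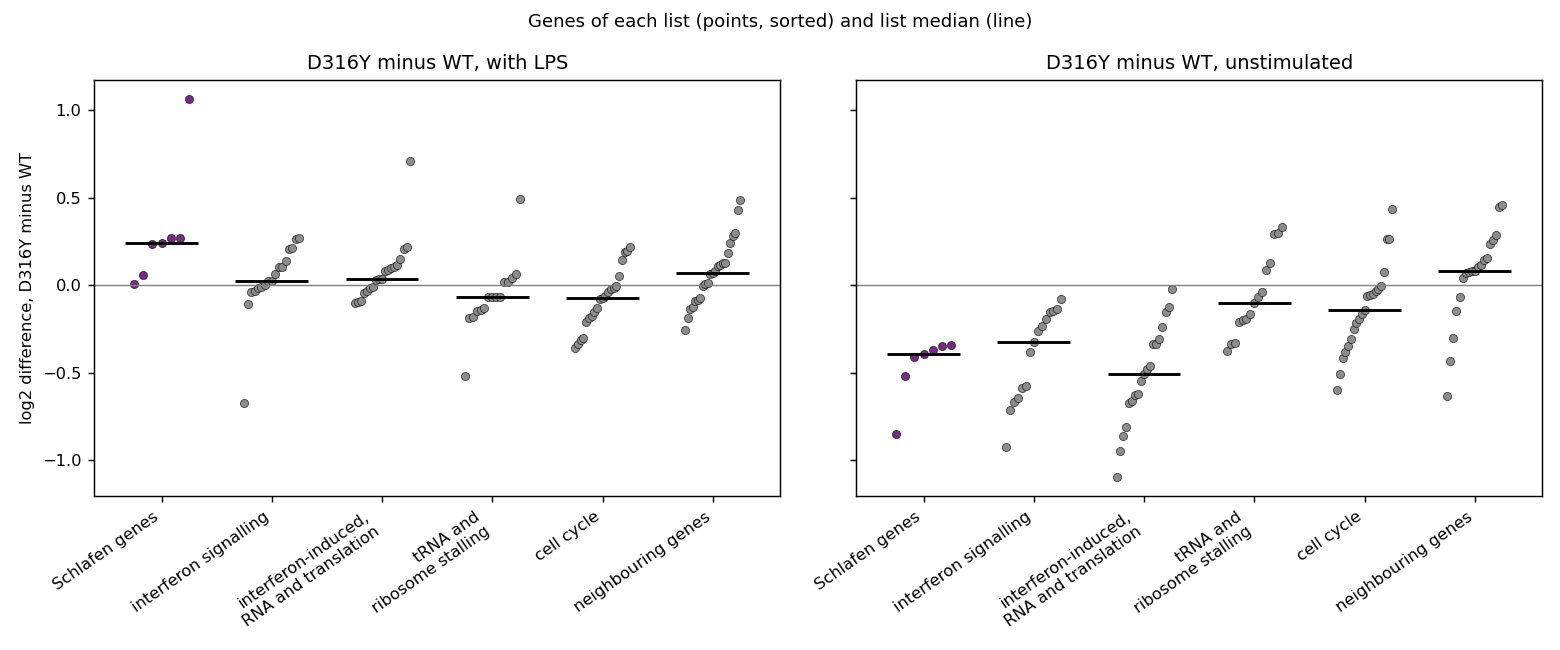
Log2 difference, D316Y minus WT, of the Schlafen genes and the genes of the other lists, with LPS (left) and unstimulated (right); each point is a gene, sorted within its list, and lines are list medians. With LPS the medians are 0.24 for the Schlafen genes, 0.02 for interferon signalling and 0.04 for the interferon-induced RNA genes, against -0.39, -0.32 and -0.51 in unstimulated cells for the same 3 lists, with 0 genes passing.

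In some groups a single library was highest or lowest for most members. Unstimulated WT replicate 1 was the highest of its group for 7 of 7 members, and unstimulated D316Y replicate 2 the lowest of its group for 7 of 7. With LPS, D316Y replicate 2 was the highest for 6 of 7 and D316Y replicate 3 the lowest for 5 of 7. WT with LPS was mixed, where replicate 3 was the highest for 4 of 7, and the lowest was replicate 1 for 4 and replicate 2 for 3. In unstimulated WT the lowest was replicate 3 for 4 and replicate 2 for 3. The summed level of the family was 1965, 1950.4 and 1561 CPM in D316Y with LPS, against 1631, 1706 and 1788 CPM in WT with LPS. In unstimulated cells it was 874, 645 and 852 CPM in D316Y, against 1316, 897 and 871 CPM in WT. Slfn2 makes up most of these sums. The mean log2 CPM of the interferon-induced RNA genes was 7.75, 7.85 and 7.52 in D316Y with LPS and 7.64, 7.51 and 7.74 in WT with LPS, against 6.28, 5.84 and 6.47 in unstimulated D316Y and 7.19, 6.49 and 6.46 in unstimulated WT. Its lowest library was also that of the family sum in D316Y under both conditions and in unstimulated WT, but not in WT with LPS, and the part of either in the other was not tested.

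The genes with the most similar profile to each member were ranked by the root-mean-square distance between mean-centred log2 CPM over the 12 libraries. Nearest to Slfn2 were Ifnar2, a chain of the type I interferon receptor (0.068), Rnf114 (0.079) and Irf1 (0.088), beside a median distance of 0.57 over all genes. Nearest to Slfn8 were Rnf31 (0.090), Parp9 (0.099) and Rnf114 (0.12), beside a median of 0.58. Slfn5 was nearest to Adar (0.13), Znfx1 (0.16) and Pml (0.16), beside a median of 0.62. Slfn3 was nearest to Oas1c (0.14), Zmynd15 (0.14) and Sp110 (0.15), beside a median of 0.68.

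The distance is not scaled to the size of a gene's own changes. For the strong responders it was larger, both to their nearest genes and at the median over all genes. Slfn1 was nearest to H2-Q7 (0.33), Gm43302 (0.35) and Sod2 (0.40), beside a median of 2.34, and Slfn4 to Ifi205 (0.42), Il15ra (0.46) and Acp5 (0.49), beside a median of 2.05. Slfn9 was nearest to Tcof1 (0.14), Dpp9 (0.14) and Plekha2 (0.14), beside a median of 0.48. Among the members themselves, Slfn2 and Slfn8 were the closest pair (0.16), then Slfn2 and Slfn3 (0.18), whereas Slfn8 and Slfn9 were 0.36 apart. These distances are descriptions over 12 libraries that fall into 4 groups.

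Close copies set a limit on how well reads can be told apart. Of the 50-base stretches in the annotated transcripts of Slfn8, 10.1% also occur in Slfn10-ps and 9.30% in Slfn9, and of those in Slfn9, 8.10% also occur in Slfn10-ps and 6.52% in Slfn8. Slfn3 shares 7.39% with Slfn4 and 6.45% with Gm11427, its passing neighbour above, and Slfn4 shares 6.28% with Slfn3 and 4.02% with Gm11427. Counted against any other gene, the share was 16.0% for Slfn3, 14.6% for Slfn8, 11.9% for Slfn9, 11.3% for Slfn4 and 11.1% for Slfn5. Slfn1 shares 0.606% and Slfn2 4.27% with any other gene. The antisense gene Slfn5os overlaps Slfn5 and shares 7.39% of its stretches, and the sources do not say whether counting used strand. Values of Slfn3, Slfn4, Slfn5, Slfn8 and Slfn9 carry that uncertainty.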

How the data were processed

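RNA-seq of 12 libraries in 4 groups of 3 was analysed. The authors deposited log2 CPM values, per the file headers, in 2 tables of 12493 rows with identical values (largest difference 0); 52 repeated rows were dropped, leaving 12441 genes. The tables also hold the authors' log2 fold changes and deposited p-values of the genotype comparisons. Per the submitters' processing notes the tools included STAR 2.5.1a, featureCounts 1.4.6-p5, edgeR and limma; the sources used here name no genome build or annotation.

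The deposited log2 values have the form of reads, with 0.5 added, divided by an effective size of the library: of values under 200 reads, 100% came out whole to within 0.01 of a read. No intervals on reads are given.

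Comparisons were made in R 4.3.3 using limma 3.58.1, with tables read by data.table (1.17.8). Each gene had a linear model on its log2 values, eBayes with trend and robust, two-sided, Benjamini-Hochberg over all genes whose mean reached 0 log2 CPM in a compared group, threshold 0.05, no fold minimum. All 7 members passed this filter in every comparison. LPS responses and the interaction came from 1 fit of 12 libraries, and genotype differences from the 6 libraries of a condition. The model code was tested on simulated data. Of the identifiers, 12433 matched a symbol table. Positions and exon lengths came from GENCODE M21 (GRCm38), promoters from RefSeq (GRCm38.p6); all 7 members matched both.

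Every Schlafen member was named. Other names follow a rule: up to 4 passing genes per list with the smallest adjusted p, the 3 nearest profiles per member, and passing genes within 500 kb of the cluster. Irf5, Ang, Ly6c2, Ccr2, Cd34, Camp, Ngp, Cd4, Cd79b, Lck, Slfn10-ps and, in D316Y or WT, Ccnd3 were named after their values were seen. Some list genes are not reported here by name. The members and lists were chosen with earlier results of these data known. Pairing by replicate number was checked from how far same-numbered libraries deviate together from their group means across genes. For replicates 1, 2 and 3 the correlations were 0.660, 0.636 and 0.203 between unstimulated genotypes. Unstimulated D316Y replicate 3 correlated best with a WT library of another number. Between LPS genotypes the correlations were -0.159, 0.094 and -0.019. Between LPS and unstimulated libraries they were -0.181, -0.224 and -0.068 in D316Y, and 0.373, 0.200 and -0.051 in WT. Pairing by number was therefore not established, and the labels do not state it. The alternatives were another scaling, filter, pseudocount, weights, moderation, sample set, replicate block and each library left out.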

Additional observations from a re-analysis of the deposited data

How the results depend on the processing

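Slfn1 and Slfn4 kept their LPS calls in both genotypes under all alternatives tried, as did Slfn2, Slfn3 and Slfn8 in D316Y. The genotype differences and the interaction gave 0 passing members under all of them. Of 7 members, 5 rose with LPS in WT as reported. The count passing was 3 with total recovered reads as library size (1 of them, Slfn9, lower), against 58.4% of all genes tested. In a fit of the 6 WT libraries it was 3, against 31.3%. With a library left out it was 2 to 5, against 30.5% to 35.5%. In D316Y it was 5 to 7 with a library left out, against 30.7% to 35.8% of all genes. It was 0 in the genotype and interaction comparisons, against at most 0.194%. Without both unstimulated replicate 1 libraries the counts were 7 in D316Y and 6 in WT, against 43.9% and 41.9% of all genes.

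Signs turned for Slfn9 with LPS in D316Y (-0.029 with total reads as library size) and in WT (0.034 without both unstimulated replicate 1 libraries; -0.36 to 0.034 with a library left out), and for Slfn5 with LPS in WT (-0.19 with total reads). They also turned for D316Y minus WT under LPS in Slfn2 (-0.0087 with each library centred on its median gene; -0.048 to 0.087 with a library left out) and Slfn5 (-0.24 to 0.28 with a library left out). None of these values passed, and the cause was not tested. Total reads as library size raised the genes called with LPS to 6922 in D316Y and 6807 in WT, beside 4524 and 4328 with the authors' sizes.

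With the replicate block, members passing were 6 and 5 for LPS in D316Y and WT, against 41.1% and 40.2% of all genes. They were 0 for both genotype differences and the interaction, and the block changed no member's call. The block moved the unstimulated genotype count over all genes to 6, beside 1 without it. Over all alternatives that count lay between 0 and 10, and between 1 and 22 under LPS (22 without WT LPS replicate 2). With 3 libraries a group, differences under the intervals given could not be told from 0. Members at low read counts, Slfn3 above all, carry more counting error.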
